A study of Mus musculus with 24 samples.

Results

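The genes of the laminin chains and of the integrin chains were followed in dermal papilla (DP) cells of mouse hair follicles. Members were all entries whose gene symbol has the form of a laminin alpha, beta or gamma chain or of an integrin alpha or beta chain. In all, 38 of the 25755 genes in the tables met this rule. They were 11 laminin chain genes, 19 integrin alpha entries and 8 integrin beta genes. They carry 37 distinct symbols, because Itgam stands there under a pair of identifiers. DP cells were labelled with YFP from a ROSA26 EYFP reporter, isolated from back skin by sorting, and profiled by RNA-seq of ribosome-depleted total RNA at postnatal days 20 (P20, telogen of the first cycle), 24 (P24, early anagen), 28 (P28, mid-anagen) and 60 (P60, telogen of the second cycle). At each age 3 control and 3 dM1/2 libraries were made, 24 in all, each from a separate biological replicate. The dM1/2 double mutants carried Cor-cre/+ with Hdac1Flox/Flox and Hdac2Flox/Flox, so that Hdac1 and Hdac2, which encode a pair of histone deacetylases, were deleted by a Cre driven from the Corin locus, a gene of the DP. Controls carried Cor-cre/+ as well, with 1 or both Hdac genes heterozygous for the floxed allele. The study's methods also admit controls homozygous for the floxed allele of 1 of the pair. Which genotype a given control library has is not given in the sources used here. The Cor-cre line is described as FVB, the floxed and reporter lines as C57BL/6J. By the methods, P20 mice were females, anagen mice males and P60 mice of both sexes, so that stage, sex and depth cannot be told apart between ages, whereas control and dM1/2 were compared within an age. The sex of single P60 libraries is not stated here, and its balance between the genotypes at P60 was not checked.

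Laminins are trimers of an alpha, a beta and a gamma chain that polymerise into the sheet of the basement membrane, and the alpha chain carries the main sites for cell receptors. Integrins are pairs of an alpha and a beta chain that span the plasma membrane and tie such matrix to the cytoskeleton. The alpha 3, alpha 6 and alpha 7 chains bind laminins, the alpha 5, alpha 8, alpha V and alpha IIb chains bind ligands with an RGD peptide such as fibronectin. The alpha 1, alpha 2, alpha 10 and alpha 11 chains bind collagens, and alpha 4 and alpha 9 bind ligands such as VCAM-1 and tenascin-C. The beta 2 and beta 7 chains with their partners are used by leukocytes. In the hair follicle a basement membrane separates the DP from the epithelial matrix, and the DP is embedded in a laminin-rich matrix of its own.

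Sequence is shown for 4 members whose transcript changed in anagen and whose start in the annotation lies inside the window of the RefSeq promoter table. They are Itgav, Itga8 and Itgb1, which fell at both anagen ages, and Lama5, which rose at P24. The table holds 23 of the 37 member symbols, and Lama1, Itga7, Itga6, Lama4 and Lamc1 are not among them. Each run spans 250 bases before to 50 bases after the start, 300 bases in all, read 5′ to 3′ on the gene's own strand in build GRCm38.p6, with GC boxes in capitals (GGGCGG, or CCGCCC from the opposite strand).
Itgav: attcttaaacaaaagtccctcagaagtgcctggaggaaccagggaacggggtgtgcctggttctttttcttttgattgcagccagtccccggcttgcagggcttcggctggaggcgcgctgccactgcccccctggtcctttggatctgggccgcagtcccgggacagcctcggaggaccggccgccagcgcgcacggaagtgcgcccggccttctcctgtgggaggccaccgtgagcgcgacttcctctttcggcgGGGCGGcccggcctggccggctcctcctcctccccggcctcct
Itga8: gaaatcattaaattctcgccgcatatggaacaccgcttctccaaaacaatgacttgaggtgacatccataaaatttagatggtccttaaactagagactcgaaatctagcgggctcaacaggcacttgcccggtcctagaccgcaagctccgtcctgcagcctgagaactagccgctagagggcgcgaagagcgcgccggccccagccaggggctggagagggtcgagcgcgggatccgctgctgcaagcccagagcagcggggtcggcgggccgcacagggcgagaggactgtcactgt
Itgb1: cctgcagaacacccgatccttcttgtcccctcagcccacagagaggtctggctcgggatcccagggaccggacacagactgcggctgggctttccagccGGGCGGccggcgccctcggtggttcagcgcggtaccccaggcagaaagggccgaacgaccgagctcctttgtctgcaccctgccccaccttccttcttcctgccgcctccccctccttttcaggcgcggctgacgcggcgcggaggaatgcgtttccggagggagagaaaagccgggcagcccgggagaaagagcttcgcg
Lama5: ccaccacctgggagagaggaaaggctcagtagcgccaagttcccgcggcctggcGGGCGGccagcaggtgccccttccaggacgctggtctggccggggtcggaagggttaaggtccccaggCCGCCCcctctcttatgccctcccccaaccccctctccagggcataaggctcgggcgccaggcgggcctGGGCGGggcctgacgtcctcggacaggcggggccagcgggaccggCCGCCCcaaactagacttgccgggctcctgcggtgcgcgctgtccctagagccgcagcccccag
These are chr2:83724147-83724446 on the plus strand, chr2:12301895-12302194 on the minus strand, chr8:128685404-128685703 on the plus strand and chr2:180225810-180226109 on the minus strand. All 4 were GC-rich, at 67.3%, 59.0%, 67.3% and 72.7% G or C, against a median of 52.7% over all promoters of the table. GC boxes numbered 1 in Itgav, 0 in Itga8, 1 in Itgb1 and 4 in Lama5, and 11 of the 23 members with a promoter held at least 1, against 35.7% of the 32851 promoters. No member promoter held the TATA box letters TATAAA on either strand, against 13.6% of all promoters, and 4 of 23 held CCAAT, against 37.4%. The AP-1 letters TGANTCA were in the windows of Itga3, Itga9 and Itgax, against 7.8% of all promoters, and the E-box letters CANNTG were in 19 of the 23, against 72.3%. The window of Itga9 in that table lies at a start inside the gene, away from the first exon of the longest annotation, and is not printed. Members were counted as genes with a match in any of their windows. The shares over all promoters count single windows, so the units differ. A match is a stretch of letters, not a bound site.

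Library depth was 8171944 to 13369732 reads on genes in telogen and 35469841 to 49331751 in anagen. The values are read counts divided by each library's own size factor, set over all 24 libraries (normalized reads). Hdac1, which is deleted in dM1/2, had 675, 668 and 668 normalized reads in the P24 controls and 209, 188 and 116 in dM1/2, a log2 fold change of -2.01 (adjusted p = 0.00167). The log2 fold changes of Hdac1 at P20, P28 and P60 were -0.72 (adjusted p = 0.122), -0.58 (adjusted p = 0.454) and -0.25 (adjusted p = 0.986). The P28 control libraries held 214, 529 and 105 against 190.2, 149 and 126 in dM1/2, so that the library labelled P28 control 3 lay below all 3 dM1/2 libraries of that age. Log2 fold changes of Hdac2 were -0.01 (adjusted p = 0.957), 0.27 (adjusted p = 0.117), 0.16 (adjusted p = 0.333) and 0.08 (adjusted p = 0.991) at the 4 ages. Reads are summed over the whole gene, so a transcript that lost only the floxed exons would still count. Whether this bears on the Hdac1 and Hdac2 values was not tested. All 15 DP markers listed for this work were found. Their summed level was 16652 to 21676 CPM in P24 controls and 9911 to 13364 in dM1/2, with 8 of 15 markers lower and 0 higher. At P28 it was 5707 to 29311 in controls and 7725 to 9633 in dM1/2, with 5 markers lower and 3 higher. The highest and the lowest of the P28 controls, replicates 3 and 2, lay on either side of all 3 dM1/2 libraries, and calls of members at P28 that change without the library labelled P28 control 3 are given with and without it. In these bulk samples fewer cells of a type and less RNA per cell cannot be told apart.

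In control DP the laminin alpha family was made up mostly of Lama2, the alpha chain of merosin, followed by Lama4, an alpha chain of mesenchymal and vessel basement membranes. On the scale of normalized reads per kb of exon, the level that allows comparison between genes, Lama2 stood at 2083 ± 144 (SD, n = 3) in P28 controls, Lama4 at 678 ± 212, Lama5 at 39.3 ± 29.1, Lama3 at 5.43 ± 1.23 and Lama1 at 0.669 ± 0.367. The gaps between these means exceed the SDs at each step of that order. Lamb2 (2697 ± 368) and Lamb1 (1603 ± 268) were the main beta chains and Lamc3 (3145 ± 1049.8) and Lamc1 (3005 ± 1236) the main gamma chains, and the levels of the gamma pair were within their spread of one another. In P28 controls 1 and 2 alone Lamc1 stood at 3357 and 4027 and Lamc3 at 3315 and 2020.4. Lamb3, a partner of Lama3 in the laminin of epithelial hemidesmosomes, stood at 5.89 ± 5.56, and at 5.53 and 11.6 in controls 1 and 2.

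Among integrin alpha chains of P28 controls, Itga9 led at 2225 ± 805 normalized reads per kb, ahead of Itga5 at 425 ± 26.2, Itgav at 405 ± 34.8, Itga11 at 265 ± 190.0, Itga8 at 228 ± 45.6 and Itga1 at 112 ± 23.9. Itga5 and Itgav did not differ beyond their spread, nor did Itga11 and Itga8. In P28 controls 1 and 2 alone Itga11 stood at 324 and 418 and Itgb3 at 160.2 and 218, above the means of 3. The laminin-binding chains Itga6 (39.0 ± 12.1), Itga7 (17.6 ± 11.8) and Itga3 (5.83 ± 0.406) were far lower. Itgb1, the common partner of most alpha chains, stood at 2708 ± 153 and Itgb5, a partner of Itgav, at 1449 ± 351, with Itgb3 at 133 ± 101 and Itgb4, the partner of Itga6 in hemidesmosomes, at 27.2 ± 13.9. The 8 leukocyte entries held few reads, apart from Itgb7, which stood at 21.6 ± 12.3. Itgad, Itgae, both Itgam entries and Itgax, together with the epithelial chain Itgb6, had a mean under 10 normalized reads in every comparison of genotypes and were not tested there. Itgb2 was under that minimum at P28 and P60, and Itgal and Lama1 at P20 and P60.

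The effect of Hdac1/2 loss was compared within each age, and members passed the test at both anagen ages and at neither telogen age. At P24, 32 of the 38 members passed the minimum of 10 normalized reads, and 11 passed the threshold (adjusted p under 0.05, limma), 4 higher and 7 lower in dM1/2. Over all 14028 genes tested, 26.6% passed, 14.8% higher and 11.8% lower. At P28, 31 members were tested and 12 passed, 4 higher and 8 lower. Over all genes, 35.5% passed, 20% higher and 15.6% lower. The members' share of 34.4% at P24 and 38.7% at P28 is near the share of all genes. Their median change was -0.42 on the log2 scale at P24 and -0.41 at P28, against -0.01 and 0.00 for all genes, and their median absolute change was 0.65 and 0.80, against 0.37 and 0.48. At P24 every dM1/2 library lay above every control in 5 of 32 tested members (23.8% of all genes) and below in 12 (21%). At P28 the counts were 4 of 31 above (28%) and 11 below (23.3%). Of the 16 members called at either age, 7 were called at both and all 7 moved the same way at both: Lama1, Lama3 and Itga7 were higher, and Itga8, Itga9, Itgav and Itgb1 were lower. P24 and P28 are separate sets of libraries. How many of all genes were called alike at both ages was not counted. The overlap is therefore not read as particular to the members. At P24, 6 members were called without P24 control replicate 2 or without P24 dM1/2 replicate 1, and 7 without dM1/2 replicate 2 or 3, and at P28, 19 without the library labelled P28 control 3. DESeq2 on the recovered reads called 15 at P24, with Itga2b, Itga6, Itgb7 and Lama4 added, and 15 at P28, with Itga2, Itga2b and Lama2 added.

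**Figure D1:**
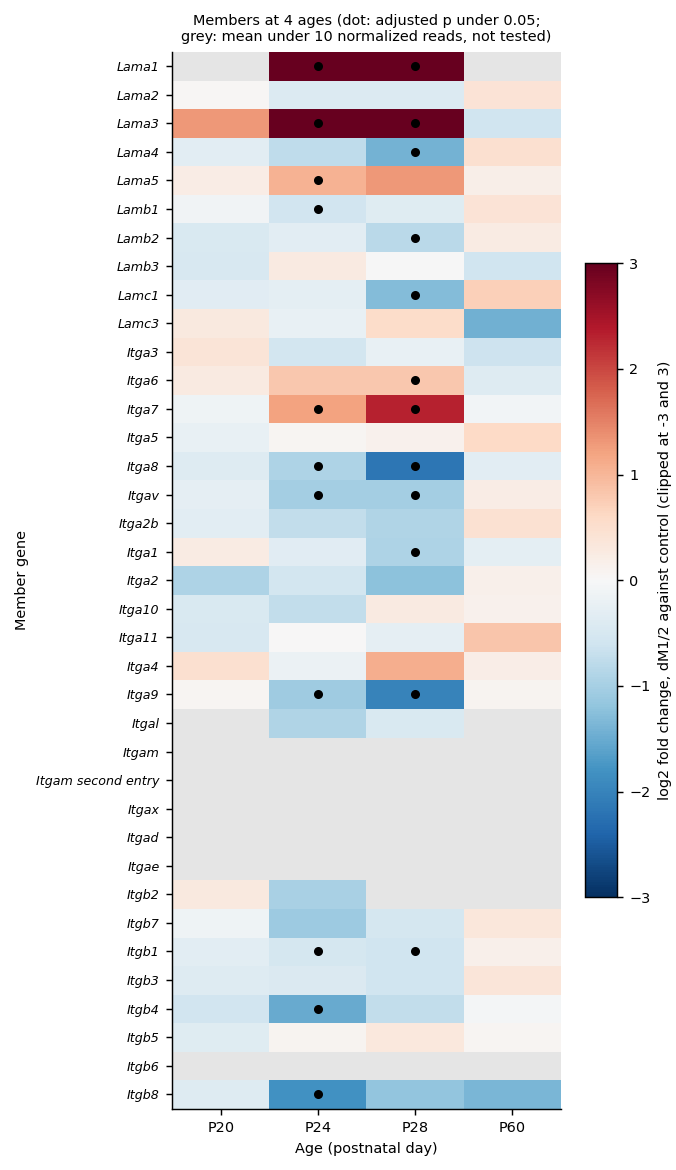
Colour gives the log2 fold change of dM1/2 against control for 37 of the 38 members (rows) at each postnatal age (columns), with a black dot where the adjusted p was under 0.05 and grey where the member was not tested. Dots stand in the P24 column for 11 members and in the P28 column for 12, and in neither telogen column.

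Lama1 and Lama3 had the largest log2 fold changes of the tested members at both anagen ages. Lama1, the alpha chain of the embryonic laminin-111 (ENSMUSG00000032796, chromosome 17, 67697259 to 67822647, plus strand, GRCm38), was close to absent from control DP. At P28 the control libraries held 2.61, 9.61 and 7.21 normalized reads and the dM1/2 libraries 1130.0, 1395 and 984, a 181-fold difference of means (log2 fold change 7.41, SE 0.41, adjusted p = 0.000191). The P28 control mean of 6.47 lay under the minimum of 10, so Lama1 entered that test through the dM1/2 libraries. Its fold there rests on 6, 15 and 19 control reads. At P24 controls held 8.12, 4.52 and 34.5 and dM1/2 175, 487 and 536 (log2 fold change 4.88, SE 0.72, adjusted p = 0.00365). Every dM1/2 library lay above every control at both ages. In the 12 telogen libraries Lama1 had 0 to 4 reads in either genotype, and it was not tested at P20 or P60.

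Lama3, the alpha chain of the epithelial laminin-332 (ENSMUSG00000024421, chromosome 18, 12333819 to 12583013, plus strand), also rose. P24 controls held 56.1, 70.8 and 62.7 normalized reads and dM1/2 347, 668 and 597 (log2 fold change 3.02, SE 0.26, adjusted p = 0.00103). P28 controls held 73.1, 54.4 and 47.4 and dM1/2 1263, 1921 and 1957, a 29.4-fold difference (log2 fold change 4.85, SE 0.24, adjusted p = 0.000161). Neither age showed overlap of the groups. The beta chain of laminin-332, Lamb3, did not pass. Its log2 fold change was 0.27 (SE 0.43, adjusted p = 0.692) at P24 and -0.01 (adjusted p = 0.995) at P28. There the controls held 36.5, 76.9 and 3.41 normalized reads and dM1/2 18.8, 19.3 and 30.5, and without the library labelled P28 control 3 the change was -1.21 (adjusted p = 0.0584). Keratinocyte markers, summed over a list of 12, amounted to 9.68 to 38.7 CPM in P24 controls and 6.94 to 11.6 in dM1/2. The 38.7 was that of P24 control replicate 2, with 15.6 in replicate 1 and 9.68 in replicate 3. At P28 they amounted to 11.3 to 16.9 in controls and 8.64 to 13.2 in dM1/2. The part of these markers in the rise of Lama3 was not tested.

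Lama5, the alpha chain of laminins of mature epithelial basement membranes, was higher at P24, with 512, 494 and 306 normalized reads in controls and 1012, 917 and 747 in dM1/2 (log2 fold change 1.05, SE 0.22, adjusted p = 0.0132). Without P24 dM1/2 replicate 1 its adjusted p was 0.0504. At P28 the controls ranged widely, at 339, 819.8 and 184, against 954, 816 and 998 in dM1/2, and the difference did not pass (log2 fold change 1.30, SE 0.49, adjusted p = 0.0797). It passed without P28 control replicate 2, at 1.87 (adjusted p = 0.00276). Lama4 moved the other way. P28 controls held 9357, 9939 and 5240.2 and dM1/2 2771, 3071 and 3063 (log2 fold change -1.41, SE 0.25, adjusted p = 0.00623), with all 3 dM1/2 libraries below the lowest control. At P24 its values overlapped, with 5822, 4533 and 2348 in controls and 2504, 2541 and 1969 in dM1/2 (log2 fold change -0.77, SE 0.31, adjusted p = 0.111), and the difference passed without P24 control replicate 3, at -1.14 (adjusted p = 0.00349). Lama2 was lower in every dM1/2 library at both ages but did not pass with limma, with log2 fold changes of -0.41 (SE 0.22, adjusted p = 0.219) and -0.41 (SE 0.22, adjusted p = 0.198). DESeq2 called it at P28, at -0.43 (adjusted p = 0.00094).

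Beta and gamma chains changed less, and those that passed were lower in dM1/2. Lamb1, the beta chain of laminin-111 and of laminin-211, held 23696, 22780.5 and 25823 normalized reads in P24 controls and 17296, 15961 and 15636 in dM1/2 (log2 fold change -0.56, SE 0.16, adjusted p = 0.0366). Its adjusted p was 0.0669 to 0.104 without any 1 of the 6 libraries. Lamb2, its counterpart in laminin-221 and laminin-521, was lower at P28, with 16201, 18737 and 14275 in controls and 8662, 9813 and 9370.0 in dM1/2 (log2 fold change -0.81, SE 0.18, adjusted p = 0.0127). Without P28 control replicate 1 its adjusted p was 0.0535 and without P28 dM1/2 replicate 3 it was 0.055. Lamc1, the gamma chain of most laminins, held 27771, 33312 and 13490.1 in P28 controls and 9364, 9197 and 9574 in dM1/2 (log2 fold change -1.31, SE 0.34, adjusted p = 0.0248). The dM1/2 libraries of Lamc1 lay within a narrow band below all controls, and its adjusted p was 0.0877 without P28 control replicate 1 and 0.0743, 0.0864 and 0.0768 without dM1/2 replicates 1, 2 and 3. Lamc3, a gamma chain of rarer laminins, was the most abundant gamma chain in P24 controls and did not pass at P24 (log2 fold change -0.23, adjusted p = 0.458) or P28 (log2 fold change 0.55, adjusted p = 0.214).

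The make-up of the laminin chains shifted in dM1/2 anagen DP, on the scale of normalized reads per kb within each family. Lama1 rose from 0.024% ± 0.013 (SD, n = 3) of laminin alpha in P28 controls to 5.56% ± 0.915 in dM1/2, and Lama3 from 0.192% ± 0.035 to 7.31% ± 1.45. Lama4 made up 24.0% ± 6.75 and 11.3% ± 0.264, and Lama2 74.4% ± 7.61 and 72.1% ± 1.44, within its spread. Lama2 remained the main alpha transcript in all 8 groups. Lamc1 accounted for 48.3% ± 19.0 of laminin gamma in P28 controls and 20.4% ± 2.45 in dM1/2, and for 16.8% ± 6.28 and 15.7% ± 2.34 at P24. The summed laminin alpha level was 2806 ± 138 in P28 controls and 2173 ± 79.5 in dM1/2, and the summed laminin beta level 4306 ± 251 and 2759 ± 234. Shares and sums were not tested.

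**Figure D2:**
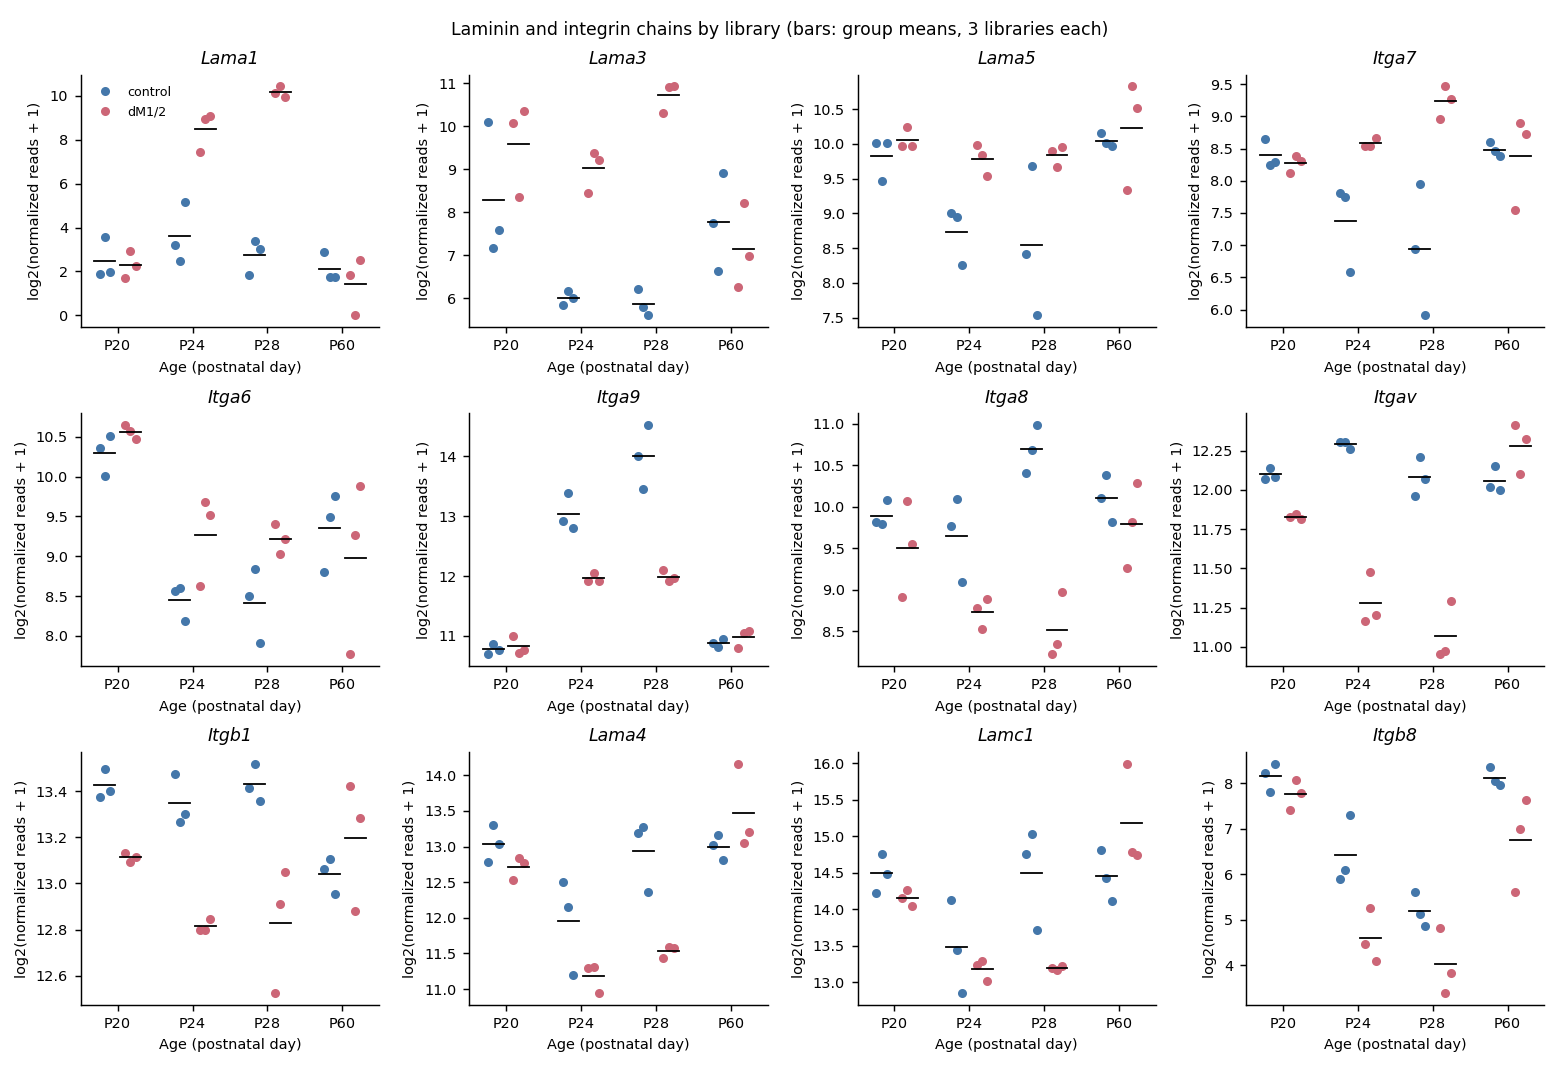
Each panel plots 1 member as log2(normalized reads + 1) against postnatal age, with a point for each library (blue, control; red, dM1/2) and a black bar for the mean of the 3 libraries. Lama1 and Lama3 stood above every control in all 6 anagen dM1/2 libraries, and Itga9, Itga8, Itgav and Itgb1 below, whereas the telogen groups of the panels overlapped except Itgav and Itgb1 at P20 and Itgb8 at P60. Of all tested genes, 23.8% lay wholly above and 21% wholly below the controls at P24, and 28% and 23.3% at P28.

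Of the 3 laminin-binding alpha chains, Itga7 and Itga6 were higher in dM1/2. Itga7, the partner of Itgb1 in the laminin receptor of muscle (ENSMUSG00000025348, chromosome 10, 128933818 to 128958282, plus strand), held 122, 247 and 59.2 normalized reads in P28 controls and 495, 709 and 619 in dM1/2, 4.26-fold more (log2 fold change 2.30, SE 0.48, adjusted p = 0.0106). At P24 the values were 222, 215 and 95.3 and 372, 372 and 406 (log2 fold change 1.20, SE 0.31, adjusted p = 0.028), with adjusted p of 0.0726, 0.072 and 0.0912 without dM1/2 replicates 1, 2 and 3. The groups did not overlap at either age. Itga6, which pairs with Itgb1 or Itgb4, held 361, 457 and 239 in P28 controls and 676, 522 and 596 in dM1/2 (log2 fold change 0.80, SE 0.25, adjusted p = 0.0428). Without P28 control replicate 1 or without any of the dM1/2 replicates its adjusted p was 0.0825 to 0.13. At P24 it was higher in every dM1/2 library, 394, 817 and 730.1 against 378, 387 and 291, but did not pass (log2 fold change 0.82, SE 0.28, adjusted p = 0.0644), and it passed without P24 dM1/2 replicate 1, at 1.14 (adjusted p = 0.0127). Itga3 had 20.9 to 46.2 normalized reads over the 12 anagen libraries and did not pass. At P24 it was lower in every dM1/2 library, at 25.1, 22.9 and 23.3 against 39.1, 40.2 and 27.4 in controls.

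Of the 4 RGD-binding alpha chains Itgav and Itga8 were lower at both anagen ages, beside 11.8% of all genes at P24 and 15.6% at P28, and Itga5 and Itga2b did not pass. Itgav, the alpha chain of the receptors for vitronectin and latent TGF-beta (ENSMUSG00000027087, chromosome 2, 83724397 to 83806916, plus strand), fell at both anagen ages. P24 controls held 5063, 5066 and 4899 normalized reads and dM1/2 2296, 2844 and 2357 (log2 fold change -1.01, SE 0.12, adjusted p = 0.00215). P28 controls held 3995, 4739.9 and 4305 and dM1/2 1981, 2005 and 2501 (log2 fold change -1.01, SE 0.14, adjusted p = 0.00248). Every control lay above every dM1/2 library at both ages. Itga8, which binds nephronectin and fibronectin (ENSMUSG00000026768, chromosome 2, 12106632 to 12301922, minus strand), held 1361, 1639 and 2029.7 in P28 controls and 297, 325 and 501 in dM1/2, 4.48-fold less (log2 fold change -2.18, SE 0.24, adjusted p = 0.00103). At P24 the values were 871, 1094 and 544 and 436, 369 and 471 (log2 fold change -0.92, SE 0.25, adjusted p = 0.0315). Without P24 control replicate 1 or 2, or without any dM1/2 library, the adjusted p of Itga8 at P24 was 0.0692 to 0.0979. Itga5, the fibronectin receptor, differed by 0.06 at P24 (95% interval -0.19 to 0.31) and 0.13 at P28 (-0.15 to 0.40). Itga2b, better known from platelets, was lower in every dM1/2 library at both ages and did not pass (log2 fold changes -0.73 and -0.91, adjusted p = 0.0786 and 0.0545), but it passed without the library labelled P28 control 3, at -1.14 (adjusted p = 0.0144).

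Itga9, which pairs with Itgb1 and binds tenascin-C and osteopontin (ENSMUSG00000039115, chromosome 9, 118606690 to 118901003, plus strand), was the most abundant integrin alpha chain per kb in anagen controls and fell at both anagen ages. P24 controls held 7761, 10709 and 7116 normalized reads and dM1/2 3853, 4248 and 3883 (log2 fold change -1.07, SE 0.17, adjusted p = 0.00504). P28 controls held 16511, 11246 and 23581 and dM1/2 4383, 3851 and 3998 (log2 fold change -2.01, SE 0.27, adjusted p = 0.00208). This was 4.20-fold less, and the groups did not overlap at either age. The P28 controls were spread widely, and the 3 dM1/2 libraries lay close together. Its share of the integrin alpha level per kb was 57.7% ± 12.4 in P28 controls and 32.3% ± 2.72 in dM1/2, while that of Itga5 was 11.5% ± 2.37 and 28.2% ± 1.21. Itga4, its closest relative, stood higher in dM1/2 at P28 on average (47.0, 126 and 35.3 in controls, 136, 133 and 113 in dM1/2) and did not pass (log2 fold change 1.08, SE 0.46, adjusted p = 0.107). It passed without P28 control replicate 2, at 1.62 (adjusted p = 0.00338).

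Of the collagen-binding chains, Itga1 was lower at P28, with 2269, 1579 and 2410.4 normalized reads in controls and 1159, 1055 and 1019 in dM1/2 (log2 fold change -0.93, SE 0.18, adjusted p = 0.00795), and every dM1/2 library lay below every control. At P24 its groups overlapped (log2 fold change -0.34, adjusted p = 0.345), and the difference passed without P24 control replicate 3, at -0.62 (adjusted p = 0.0251). Itga2 and Itga11 did not pass at P28, Itga2 with 149, 233 and 23.1 normalized reads in controls and 32.4, 47.1 and 40.1 in dM1/2, and Itga11 with 1661, 2146 and 268 and 785, 741 and 951. In both genes the library labelled P28 control 3 lay below every other library of that age, and without it the log2 fold change of Itga2 was -2.21 (adjusted p = 0.00117) and that of Itga11 -1.20 (adjusted p = 0.00149). Itga10 had 6.45 to 32.8 normalized reads over the anagen libraries and did not pass; 33.5% of its exon bases are shared with another annotated gene on the same strand.

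Beta chains that changed were lower in dM1/2. Itgb1, the most used beta chain, held 11378, 9849 and 10089 normalized reads in P24 controls and 7115, 7123 and 7372 in dM1/2 (log2 fold change -0.53, SE 0.13, adjusted p = 0.0215). It held 10917, 11732 and 10504 and 5895, 7708 and 8490.0 at P28 (log2 fold change -0.60, SE 0.18, adjusted p = 0.0421). The groups did not overlap at either age. Without P24 control replicate 1 or 2 or dM1/2 replicate 1 or 2 its adjusted p was 0.0634 to 0.0758. At P28 it was 0.0614 to 0.12 without any library other than the library labelled P28 control 3. Itgb8, the partner of Itgav in the activation of latent TGF-beta, held 58.8, 66.8 and 156 in P24 controls and 21.1, 37.3 and 15.9 in dM1/2 (log2 fold change -1.83, SE 0.46, adjusted p = 0.0247). Its adjusted p was 0.0529 without P24 control replicate 2, and 0.0724 and 0.0841 without dM1/2 replicates 1 and 3. At P28, where it was lower in every dM1/2 library but rarer, it did not pass (log2 fold change -1.18, SE 0.46, adjusted p = 0.086), and without P28 dM1/2 replicate 1 it did, at -1.59 (adjusted p = 0.035).

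Itgb4, the hemidesmosome chain, held 331, 267 and 179 normalized reads in P24 controls and 119, 103 and 54.1 in dM1/2 (log2 fold change -1.51, SE 0.34, adjusted p = 0.017), with an adjusted p of 0.0586 without P24 control replicate 2. Of 9 tested keratinocyte markers 2 were lower and 0 higher at P24, Epcam by -2.47 (SE 0.65, adjusted p = 0.0282) and Krt1 by -1.39 (SE 0.41, adjusted p = 0.0423), and their part in the fall of Itgb4 was not tested. At P28 Itgb4 did not pass (log2 fold change -0.74, SE 0.42, adjusted p = 0.219), while without the library labelled P28 control 3 it was -1.10 (adjusted p = 0.0399). Itgb5 did not pass at P24 (0.07, 95% interval -0.35 to 0.50) or at P28 (0.31, -0.21 to 0.82). Its share of the integrin beta level per kb was 33.0% ± 3.23 in P28 controls and 48.4% ± 2.29 in dM1/2, against 62.8% ± 5.44 and 49.1% ± 2.17 for Itgb1. Itgb3, the other main partner of Itgav, held 945, 1289 and 129 in P28 controls and 287, 382 and 409 in dM1/2. Again the library labelled P28 control 3 was the lowest library, and without it the log2 fold change of Itgb3 was -1.63 (adjusted p = 0.000904). Leaving out that library raised the number of members called at P28 from 12 to 19, with Itga2, Itga2b, Itga11, Itgb3, Itgb4 and Itgb7 among those added, all 6 lower in dM1/2.

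Leukocyte chains other than Itgb7 held few reads. Of 8 entries 3 were tested at P24 and 2 at P28, and none passed with limma. Itgb7 had 77.0, 30.1 and 27.4 normalized reads in P24 controls and 18.2, 19.4 and 17.2 in dM1/2 (log2 fold change -1.09, SE 0.43, adjusted p = 0.103), and DESeq2 called it, at -1.30 (adjusted p = 0.0351). At P28 it passed without the library labelled P28 control 3, at -1.14 (adjusted p = 0.0182). Itgal had 12.8, 30.6 and 13.1 in controls and 9.45, 11.8 and 6.09 in dM1/2. Itgb2, the common leukocyte beta chain, reached 58.8 in the library P24 control 1 and at most 17.7 in the other anagen libraries. The summed level of 10 immune cell markers was 74.3 CPM in that library and 10.3 and 22.2 in the other 2 P24 controls, and the part of those markers in the result was not tested. Itgae, the alpha chain of resident lymphocytes, had 2.71, 2.01 and 5.56 in P24 controls and 14.2, 15.6 and 8.45 in dM1/2, with a mean under the minimum. The second Itgam entry overlaps the first over 71.8% of its exon bases, and reads could be split between them.

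**Figure D3:**
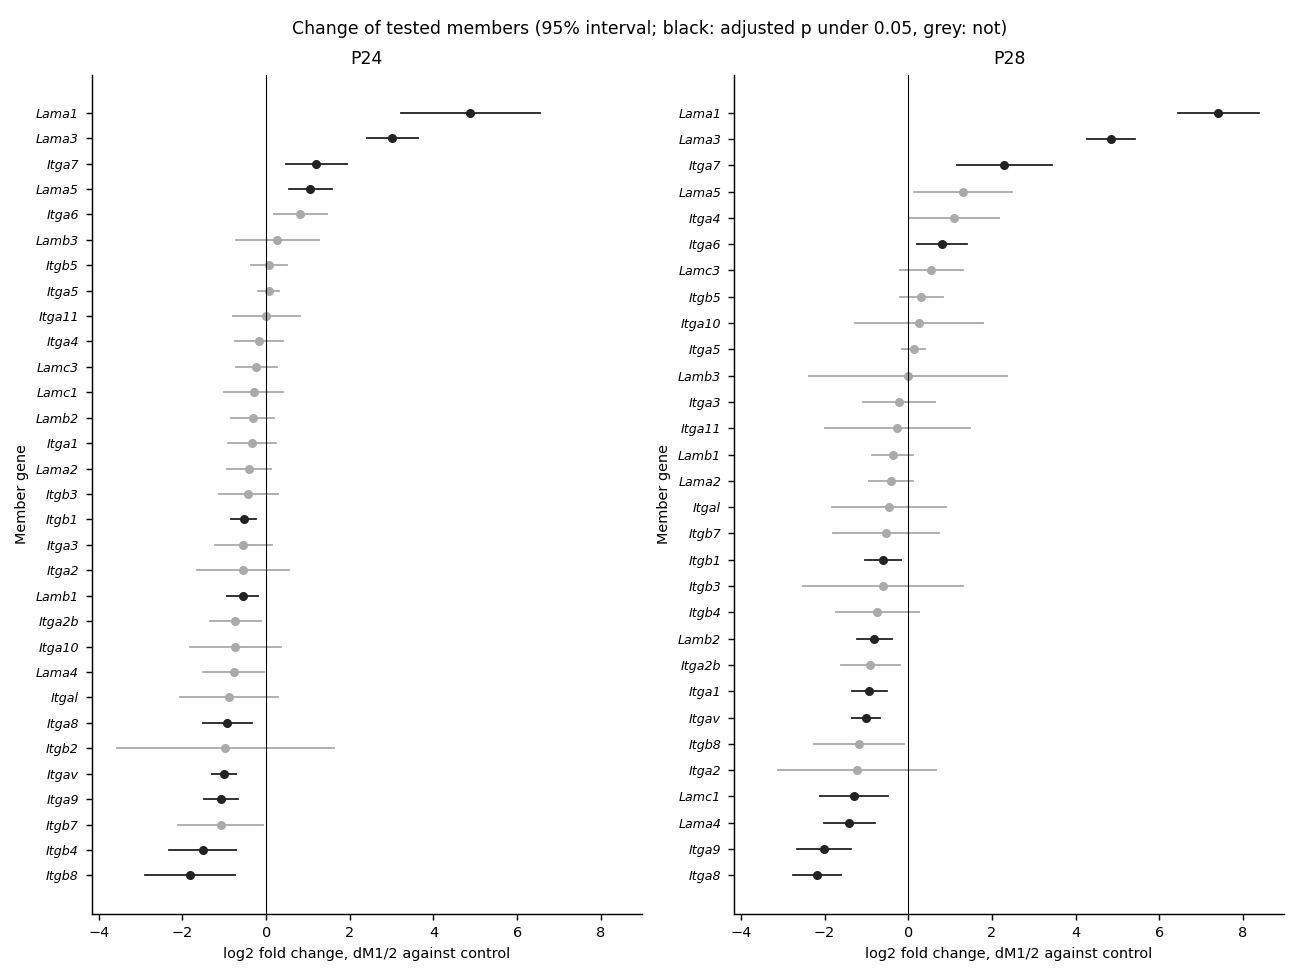
Points give the log2 fold change of dM1/2 against control for tested members at P24 (left) and P28 (right), and lines its 95% interval from the limma fit, in black where the adjusted p was under 0.05. Lama1 and Lama3 lead on the higher side at both ages, and Itgb8 (P24) and Itga8 (P28) lie lowest.

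In telogen the genotypes were compared at P20 and P60, and no member passed at either age. At P20, 0 of 30 tested members were called by limma, against 0.433% of all genes, 0.354% higher and 0.0795% lower. Unadjusted, 9 members had an unadjusted p under 0.05, and DESeq2 called 1, Lamb2 (log2 fold change -0.45). Of the 30, 20 were lower in dM1/2 and 8 were lower in every dM1/2 library than in every control, a pattern that 13.3% of all tested genes showed. Among them was Itgav. Itgav had 4299, 4521 and 4342 normalized reads in controls and 3629, 3683 and 3603 in dM1/2 (log2 fold change -0.27, SE 0.10, adjusted p = 0.181). Itgb1 had 10630.3, 11557 and 10810.0 and 8986, 8744 and 8859 (log2 fold change -0.31, SE 0.11, adjusted p = 0.166), and Lamb2 had 15138, 17953 and 15387 and 12329, 12272 and 10692 (log2 fold change -0.46, SE 0.13, adjusted p = 0.109). Lama3 varied between 143 and 1315 over the 6 P20 libraries, with high and low values in both genotypes. Leaving out P20 control replicate 1 gave 4 calls, Lama3 at 2.22 (adjusted p = 0.0319), Lamc3 at 0.54 (adjusted p = 0.0381), Itga2 at -1.16 (adjusted p = 0.038) and Lamb2 at -0.50 (adjusted p = 0.0433).

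At P60, 0 of 29 tested members were called by limma, against 0% of all genes, and 3 had an unadjusted p under 0.05, whereas DESeq2 called 0. Itga5 was higher in every dM1/2 library, at 2706, 2771 and 2914 against 1944, 2023 and 1642 (log2 fold change 0.59, SE 0.14, adjusted p = 0.986). Itgb8 (48.0, 126 and 198 against 327, 265 and 249) and Lamc3 (2742, 4332 and 10364 against 10942, 13789.8 and 16344) were lower in every dM1/2 library. Of all tested genes at P60, 4.79% were higher and 4.08% lower in every dM1/2 library than in every control. The library P60 dM1/2 1 stood apart in several members: it held 65139 normalized reads of Lamc1, against at most 28803 in the other P60 libraries, and 9634 of Itga11, against at most 3881. Its summed DP marker level was 746 CPM, the lowest of the 6 P60 libraries, and 999.6 to 2067 in the others; its part in the result was not tested. Without that library 0 members were called.

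Whether the genotype effect differed between anagen and telogen was tested in 1 fit over the 24 libraries, as the mean effect at P24 and P28 minus the mean effect at P20 and P60. Of 31 members tested 11 passed, 3 with a more positive and 8 with a more negative effect in anagen; of all genes 30.2% passed, 16.1% and 14.1% by direction. The difference was 3.58 (SE 0.67, adjusted p = 0.000554) on the log2 scale for Lama3 and 1.86 (SE 0.40, adjusted p = 0.00154) for Itga7. It was -1.61 (SE 0.19, adjusted p = 1.2e-05) for Itga9, -0.99 (SE 0.11, adjusted p = 9.3e-06) for Itgav, -1.20 (SE 0.30, adjusted p = 0.00483) for Itga8 and -0.49 (SE 0.14, adjusted p = 0.0122) for Itgb1. Lama1 was counted among the 11 with a fitted difference of 6.57, but it entered through the anagen dM1/2 libraries, and with 0 to 4 reads in each telogen library its telogen effect could not be measured. Lama4 (-1.16), Lamc1 (-0.997), Lamb1 (-0.63) and Lama2 (-0.63) also passed. Lamc1 did not pass without any 1 of 11 libraries (adjusted p 0.0503 to 0.0677), P60 dM1/2 1 among them (0.0577), nor Lama2 without P24 dM1/2 replicate 3 (0.0536) or P60 control replicate 3 (0.0543), nor Lamb1 without P28 control replicate 1 (0.0531). With the library labelled P28 control 3 and P60 dM1/2 1 both left out, a choice made after seeing the data, 14 members passed, 3 positive and 11 negative.

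Control DP alone was compared over the 4 ages, and 18 of 31 tested members differed (49% of all genes). Itga9 held 1655, 1861 and 1738 normalized reads at P20, 7761, 10709 and 7116 at P24, 16511, 11246 and 23581 at P28 and 1877, 1807 and 1978 at P60 (limma F test, adjusted p = 8.6e-06). All 6 anagen libraries were above all 6 telogen libraries. Itga1 was likewise higher in anagen, with 579, 346 and 462 at P20 and 2269, 1579 and 2410.4 at P28 (adjusted p = 0.000319). Itgb8 showed the opposite order, with 300.0, 222 and 344 at P20, 47.4, 33.9 and 28.1 at P28 and 327, 265 and 249 at P60 (adjusted p = 0.000256). Lama3 was also lower in anagen controls than in telogen controls, at 47.4 to 73.1 against 97.7 to 1101 normalized reads (adjusted p = 0.0258).

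Averaged over both anagen and both telogen ages of controls, the anagen level was higher by 2.69 on the log2 scale for Itga9, 1.83 for Itga1, 0.88 for Lamc3 and 0.63 for Lama2. It fell by 2.33 for Itgb8, 2.09 for Lama3, 1.39 for Itga6, 1.30 for Lama5, 1.28 for Itga7, 1.28 for Itgb4 and 1.16 for Itgb5. These 11 members all passed the test over the 4 ages, and the direction of every tested member was the same when libraries were scaled by TMM, under which the median of all genes was 0.02, as it was with the deposited scaling. Itgav and Itgb1 did not pass over the ages in controls (adjusted p = 0.217 and 0.0588). In the P28 dM1/2 libraries Itga9 held 4383, 3851 and 3998 normalized reads, between the control levels of telogen and of P28 anagen, and Lama3 held 1263, 1921 and 1957, above all 6 telogen controls.

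**Figure D4:**
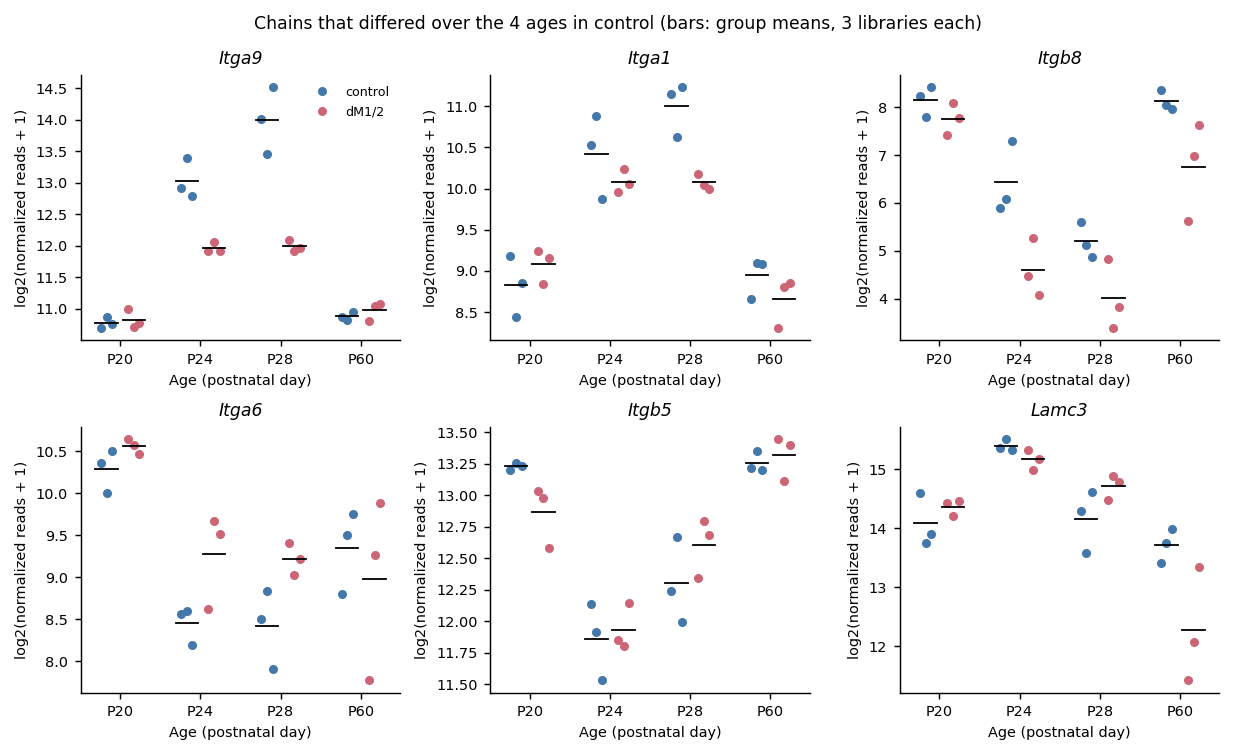
Panels plot log2(normalized reads + 1) against postnatal age for 6 chains that differed over the 4 ages in controls, with a point per library (blue, control; red, dM1/2) and a bar for the mean of 3. Itga9 and Itga1 are high in anagen controls, and Itgb8, Itga6 and Itgb5 are high in telogen.

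From P24 to P28, 0 of 32 members passed in controls by limma (1.46% of all genes, 0.723% higher and 0.738% lower). Unadjusted, 7 had an unadjusted p under 0.05 and DESeq2 called 4: Itga9 at 1.02 (adjusted p = 0.02), Itga8 at 1.02 (adjusted p = 0.0156), Lamc3 at -1.17 (adjusted p = 0.00093) and Lamb1 at -0.59 (adjusted p = 0.0138). In dM1/2, 1 of 31 passed (2.67% of all genes, 1.69% higher and 0.983% lower). This was Lama3, which rose from 347, 668 and 597 to 1263, 1921 and 1957 normalized reads (log2 fold change 1.70, SE 0.26, adjusted p = 0.0172), and without P28 dM1/2 replicate 2 or 3 its adjusted p was 0.0915 or 0.0617. Lama1 was higher in every P28 than in every P24 dM1/2 library and did not pass (log2 fold change 1.69, SE 0.38, adjusted p = 0.0568). It passed without P24 dM1/2 replicate 1 or 3, at 1.18 (adjusted p = 0.0286) and 1.98 (adjusted p = 0.0338). The change from P24 to P28 did not differ between genotypes for any of 32 members by limma (0.707% of all genes), although 5 had an unadjusted p under 0.05 and DESeq2 called Lama3 and Lama1. Without P28 control replicate 2, Itga4 passed at 1.78 (adjusted p = 0.042). These comparisons share their libraries with those of genotype.

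**Figure D5:**
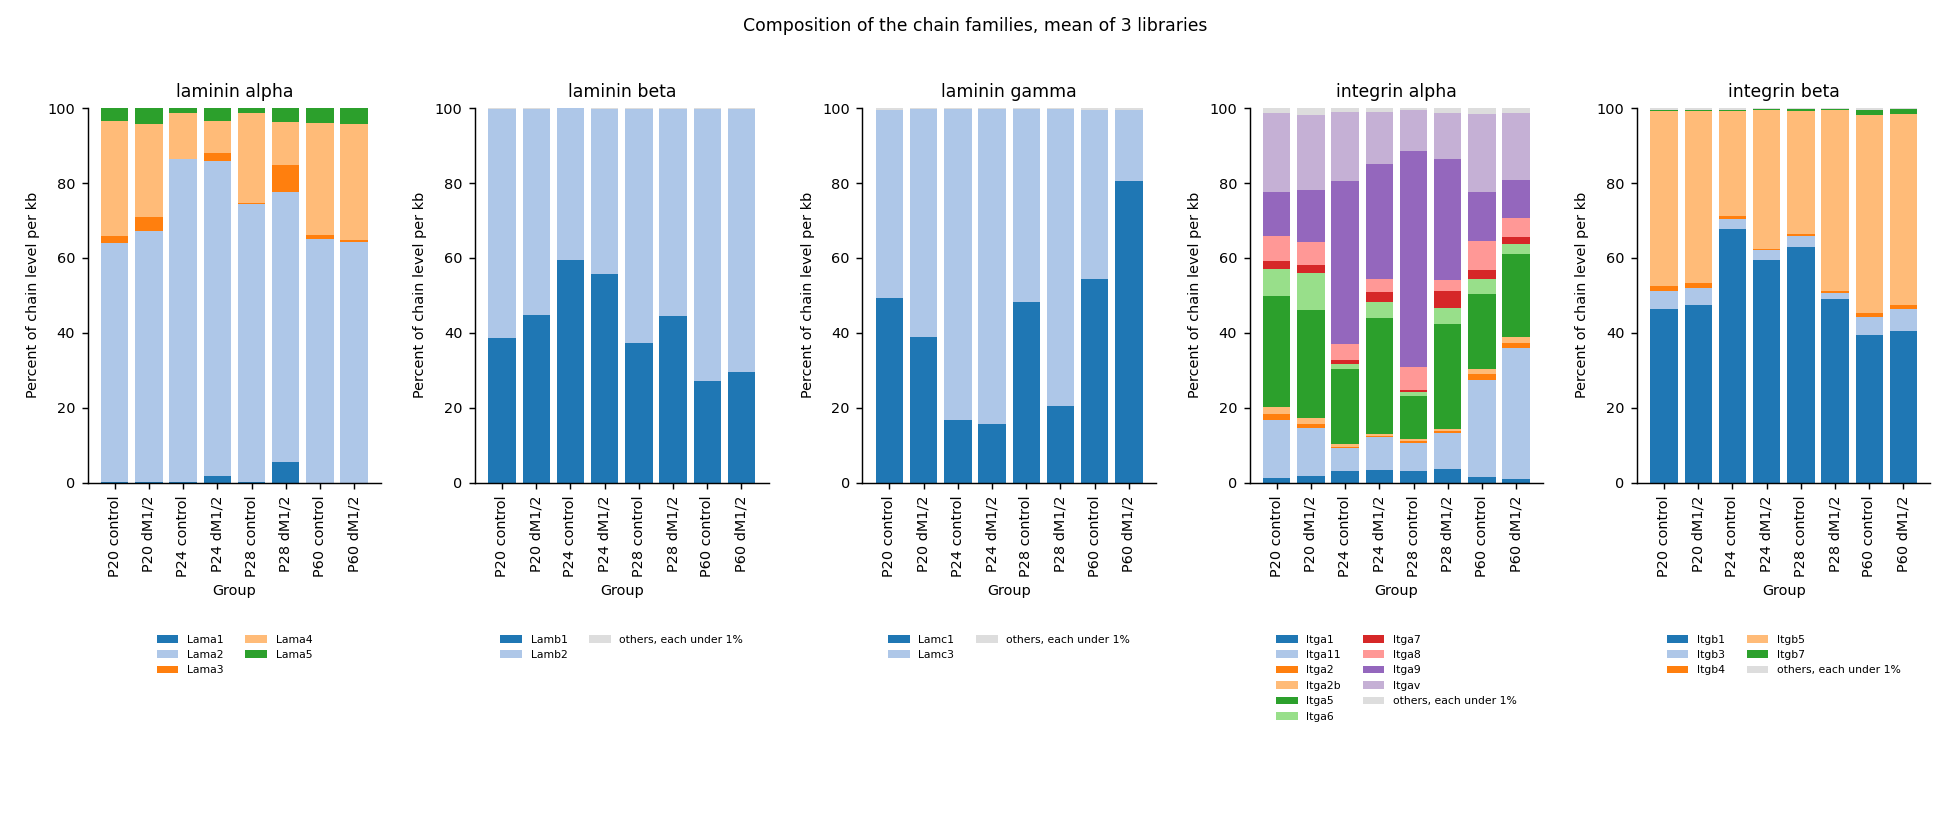
Stacked bars give each chain's percent of its family's level (normalized reads per kb of exon, mean of 3 libraries) in the 8 groups, from 0 to 100, with chains that stayed under 1% in every group pooled in grey. Lama1 is visible as a segment of laminin alpha in the anagen dM1/2 bars, Lama3 reaches 7.31% in P28 dM1/2 and 3.75% in P20 dM1/2, and Itga9 narrows from controls to dM1/2 at P24 and P28.

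Other genes of the same matrix and adhesion pathway were counted from 5 lists. Of 22 basement membrane partners, 6 passed at P24, 1 higher and 5 lower, and 9 at P28, 4 higher and 5 lower. Frem2, of the Fraser complex that anchors epithelia, changed by 2.54 (SE 0.45, adjusted p = 0.00588) at P28, and the collagen IV chains Col4a1 and Col4a4, which form the second network of the basement membrane, by -1.85 (SE 0.23, adjusted p = 0.00166) and -1.88 (SE 0.36, adjusted p = 0.00784). Of 20 other laminin receptors and their modifiers, 11 passed at P24, 4 higher and 7 lower, and 14 at P28, 4 higher and 10 lower. Mcam, a receptor of laminin-411, changed by 2.42 (SE 0.64, adjusted p = 0.0254), and the sarcoglycans Sgcd and Sgce, subunits of the dystrophin complex, by -1.73 (SE 0.26, adjusted p = 0.00301) and -1.38 (SE 0.13, adjusted p = 0.000691).

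Of 23 tested other integrin ligands, 8 passed at P24, 2 higher and 6 lower, and 8 at P28, 3 higher and 5 lower. Ibsp, bone sialoprotein, changed by 8.05 (SE 0.50, adjusted p = 0.000378) at P24, Tnn, tenascin-W, by 6.06 (SE 0.78, adjusted p = 0.00178) at P28 and Spp1, osteopontin, by -4.33 (SE 0.26, adjusted p = 0.000378) at P24. In the integrin adhesion core 9 of 38 tested genes passed at P24, 2 higher and 7 lower, and 13 of 37 at P28, 3 higher and 10 lower. Its parvins, which link integrin-linked kinase to actin, moved apart at P28, Parvb by 2.19 (SE 0.50, adjusted p = 0.0148) and Parvg by 1.71 (SE 0.37, adjusted p = 0.0127) but Parva by -1.32 (SE 0.15, adjusted p = 0.00113). Among 16 tetraspanins, proteases and linkers 2 passed at P24, 1 in each direction, and 5 at P28, 1 higher and 4 lower. Dst, which ties integrin Itgb4 and keratin filaments together in epithelia, changed by -1.42 (SE 0.25, adjusted p = 0.00573) and Cd47 by -1.06 (SE 0.30, adjusted p = 0.0338) at P28, and the membrane protease Mmp14 by -0.78 (SE 0.18, adjusted p = 0.0173) at P24. Over all genes the shares called were 26.6% at P24 and 35.5% at P28. In telogen, Agrn (0.90, SE 0.13, adjusted p = 0.031) and Tnn (1.41, SE 0.19, adjusted p = 0.026) were the only genes of the 5 lists called at P20, and none was called at P60.

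Markers of other cell types that the sorted cells could hold were summed beside these results. Lists for keratinocytes, melanocytes, endothelial, immune and Schwann cells and adipocytes each stayed under 90 CPM in every anagen library, and dermal sheath and smooth muscle markers at 114 to 451, against 5707 to 29311 for DP markers. Endothelial markers, of a cell type in which Lama4 and Lama5 are common, summed to 27.0 to 59.4 in P24 controls and 38.7 to 72.9 in P24 dM1/2. At P28 they summed to 22.6 to 78.8 in controls and 63.8 to 75.1 in dM1/2. These markers did not move alike. Of 6 tested at P24, 1 was higher, Flt1 at 1.86 (adjusted p = 0.00538, limma), and 1 lower, Pecam1 at -1.39 (adjusted p = 0.0162). At P28 only Flt1 passed, at 5.02 (adjusted p = 0.00709). The median log2 fold change of the list was -0.76 at P24 and -0.12 at P28. Schwann cell markers, of a cell type that uses Lama2 and Itga6, summed to 62.8 to 85.3 in P24 controls and 21.7 to 28.1 in dM1/2, with 3 of 5 tested markers lower. At P28 they summed to 25.7 to 52.0 in controls and 33.2 to 41.8 in dM1/2, with 1 of 5 lower. Their part in the laminin and integrin changes was not tested.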

How the data were processed

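DP cells were sorted for YFP from individual skins, and 24 libraries of rRNA-depleted total RNA were sequenced as single reads. Per the labels and methods the authors used Trimmomatic for trimming, TopHat2 for alignment to mm10 and HTSeq for counting on Ensembl GRCm38.p4 genes, and divided the counts by DESeq2 size factors over all libraries; the deposited values are this signal, normalized reads with no unit of length. Whether counting used strand is not given in the sources used here. Whole reads were recovered for 100% of values (within 0.01). Columns of the authors' own fold changes and p-values were not used. Genes that averaged 10 or more normalized reads were tested with limma 3.58.1 (R 4.3.3, trend, two-sided) on log2(value + 1), so fold changes of low genes are understated, with Benjamini-Hochberg adjustment over all genes and a threshold of 0.05. Each library was 1 replicate, 3 per group. Alternatives were edgeR 4.0.16 and DESeq2 1.42.0 on the recovered reads, a pseudocount of 10, other filters and thresholds, 1 fit over all libraries, a replicate block and each library left out. Levels per kb used GENCODE exon lengths (GRCm38). The members, pathway lists and marker lists were chosen with earlier results of these data known. The values of 1 member are not reported here. Per-library values were given for members called at P24 or P28 with groups that did not overlap, and up to 3 called genes with the largest change per pathway list were named; other named members were chosen after their values were seen.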

Additional observations from a re-analysis of the deposited data

Results flagged for a closer look

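Between anagen and telogen, the difference in the effect of Hdac1/2 loss passed for 11 members in limma's test of the difference itself over the 24 libraries (mean log2 fold change at P24 and P28 minus that at P20 and P60). The difference was 3.58 for Lama3 and 1.86 for Itga7. It was -1.61 for Itga9, -1.20 for Itga8, -1.16 for Lama4, -0.997 for Lamc1, -0.99 for Itgav, -0.63 for Lamb1, -0.63 for Lama2 and -0.49 for Itgb1. The fitted value of Lama1 was 6.57, but Lama1 passed the filter through the anagen dM1/2 libraries and held 0 to 4 reads in each telogen library, so that it gives no test of a difference between stages. Lama2 passed in this comparison and with limma in neither single age, while DESeq2 called it at P28 (log2 fold change -0.43, adjusted p = 0.00094). Anagen libraries held 35469841 to 49331751 reads and telogen libraries 8171944 to 13369732, and anagen mice were male; stage, sex and depth cannot be told apart in this difference. For Lamc1 the library P60 dM1/2 1 held 65139 normalized reads, and its adjusted p of 0.0347 was 0.0577 without that library. Groups held 3 libraries, too few for a search for single outlying libraries within a group.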

How the results depend on the processing

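Members called in the main fit were recomputed under the alternatives in 674 values. Of these, 606 kept their direction and their side of the threshold, 68 lost the call and 0 changed sign. By comparison, 324 of 340 kept the call for anagen minus telogen and 123 of 153 at P24. At P28 148 of 167 kept it, and from P24 to P28 in dM1/2 11 of 14. Members that gained a call under an alternative are not in this count. Lama1, Lama3, Itga9 and Itgav at both anagen ages, and Itga8, Itga7, Lama4 and Itga1 at P28, kept the call in every recomputed value. For Lama1 these were 13 values at each age, against 14 for the others. The filter of at least 10 normalized reads in every library removed Lama1, so its call was not recomputed there. Counts of members called moved by more than 1.5 times as follows. With an adjusted p under 0.01 they were 4 at P24, 7 at P28, 0 from P24 to P28 in dM1/2, 7 for anagen minus telogen and 11 over the 4 ages; with an absolute log2 difference of at least 1, 6 remained for anagen minus telogen. DESeq2 called 1 at P20, 4 from P24 to P28 in controls, 6 in dM1/2 and 2 for the difference between genotypes of that change. edgeR called 2 from P24 to P28 in dM1/2. A pseudocount of 10 gave 1 for the difference of that change between genotypes. One fit over all libraries gave 1 at P60, Itga5 (log2 fold change 0.59, adjusted p = 0.016), 5 from P24 to P28 in controls and 0 in dM1/2. With 1 library left out, the counts ranged from 0 to 4 at P20 (4 without control replicate 1), from 6 to 15 at P24 (6 without control replicate 2 or dM1/2 replicate 1, 7 without dM1/2 replicate 2 or 3, 15 without control replicate 3) and from 8 to 19 at P28 (19 without the library labelled control 3). They ranged from 0 to 0 at P60, from 0 to 0 from P24 to P28 in controls, from 0 to 3 in dM1/2 (3 without P24 dM1/2 replicate 3 or P28 dM1/2 replicate 1, 2 without P24 dM1/2 replicate 1, 0 without P28 dM1/2 replicate 2 or 3), from 0 to 1 for the difference of that change (1 without P28 control replicate 2), from 9 to 14 for anagen minus telogen and from 15 to 24 over the 4 ages. Leaving out the library labelled P28 control 3 together with P60 dM1/2 1, chosen after seeing the data, gave 14 for anagen minus telogen. Apart from alternatives whose construction lowers the count, such as a stricter threshold or fewer libraries, the cause was not tested.

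The replicate numbers are shared between genotypes in the labels. The deviations of same-numbered libraries from their group means correlated at 0.21, 0.06 and 0.123 at P20, -0.159, 0.028 and -0.388 at P24, -0.168, 0.015 and -0.236 at P28 and 0.304, 0.029 and 0.152 at P60, so that at no age did all 3 pairs pass 0.1, although all 3 were positive at P20 and P60, and the libraries were not treated as pairs. With the replicate block 7 members were called at P24 and 2 from P24 to P28 in dM1/2, 10 at P28, 11 for anagen minus telogen, 21 over the 4 ages and 0 in the other comparisons; 5, 0, 1 and 3 of 6 libraries at P20, P24, P28 and P60 correlated best with their own number.

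Low levels limit the rare members. Lama1 in telogen (0 to 4 reads a library) and 5 of the 8 leukocyte entries at every age had a mean under 10 normalized reads. They were not tested between genotypes there. Telogen libraries also held fewer reads than anagen libraries.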

Other observations

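Among neighbouring members, Itga2 and Itga1 lie 21.0 kb apart on chromosome 13. At P28 the library labelled control 3 held the lowest value of its group for Lamc1 and Itga2 and the highest for Itga1. Itgae, untested because its mean was under 10 normalized reads, held more in every dM1/2 library than in every control at P24, and passed there without the filter on low values (log2 fold change 1.68, adjusted p = 0.0489).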
